A study of Mus musculus with 6 samples.

Results

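9 transcripts of the ventral dentate gyrus were followed here, 9 of the 24062 gene symbols counted in every library: Malat1, Neat1, Miat, Meg3, Rian, Mirg, Snhg11, 9530059O14Rik and 6330403A02Rik. They were chosen by symbol as abundant, imprinted or clone-named RNAs that a total RNA library captures, and all 9 passed the filter on low counts. 9530059O14Rik and 6330403A02Rik were selected on their difference between stress and control in these libraries, so for these 2 genes that difference is given as a description with no test. The study took the ventral dentate gyrus, the region of the hippocampus that holds the granule neurons, from male C57black 6 mice and compared it after chronic restraint stress (stress, 3 libraries) and without stress (control, 3 libraries). RNA was depleted of ribosomal RNA and made into stranded libraries, so RNAs without a poly(A) tail could be kept. The number of animals behind each library and their age are not stated in the labels, so p-values measure only the spread between these libraries, which may be technical.

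Long noncoding RNAs are transcripts that act as RNA, or whose transcription itself acts, rather than through a protein. Malat1 gathers in nuclear speckles, where splicing factors are stored, Neat1 is the scaffold of paraspeckles, and Miat (also called Gomafu) forms its own nuclear bodies in neurons. Meg3, Rian and Mirg are expressed from the maternal chromosome of the imprinted Dlk1-Dio3 domain, where the paternal chromosome expresses the protein genes Dlk1, Rtl1 and Dio3, and Rian and Mirg are hosts of small nucleolar RNAs and miRNAs.

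The label of noncoding RNA did not hold for every gene. 6330403A02Rik is an older symbol of Stum, which both RefSeq and GENCODE M21 list as protein coding, at chr1:180432387-180483504 on the minus strand of GRCm38. It is therefore described here as a protein-coding gene under the symbol the counts use. Snhg11, at chr2:158375638-158386145 on the plus strand, is a long noncoding RNA in RefSeq and protein coding in GENCODE. The other 7 are noncoding in both annotations.

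Libraries held between 8305753 and 10107953 counts assigned to genes. Values below are CPM (gene counts scaled to library size) after TMM scaling, and 3 counts, taken as the floor, correspond to 0.297 to 0.361 CPM. Of 14058 genes tested with edgeR's quasi-likelihood test, 4 had a Benjamini-Hochberg adjusted p under 0.05, and all 4 were lower in stress (Ddit4l, Igfbp6, Kcns1 and Tacr3). Stress replicate 1 stood apart from the other 5 libraries. Its 7 choroid plexus markers summed to 4773 CPM, against 24.8 to 32.6 CPM elsewhere, and its 7 oligodendrocyte markers to 4694 CPM, against 1984 to 3107 CPM. Its 5 ependymal markers summed to 84.8 CPM, against 6.95 to 10.7 CPM, and the 6 striatal neuron markers found to 574 CPM, against 61.1 to 85.6 CPM. Its 8 granule neuron markers had the lowest sum, 1480 CPM, against 1599 to 2047 CPM, but they did not move together. Slc17a7, the largest of them, stood at 911 CPM, above the controls (685 to 785 CPM), and Neurod2 lay inside the control range. Prox1, C1ql2, Dsp, Calb1, Tdo2 and Rfx3 were each lowest in stress replicate 1. C1ql2, for example, was at 20.9 CPM, against 62.5 to 83.4 CPM elsewhere. In bulk tissue, fewer cells of a type and less RNA per cell cannot be told apart.

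The nuclear RNAs were first compared by sequence, because Malat1 and Neat1 end in an element known to replace the poly(A) tail: a pair of U-rich tracts that fold around an A-rich tract into a triple helix. Malat1 lies at chr19:5795690-5802672 and Neat1 at chr19:5824708-5845478, both on the minus strand and 22.0 kb apart. The letters TTTCTTTT, TTTGCTTTT and AAAAGCAAA were searched in that order within 120 bases, on the transcribed strand. They occurred in 2 of 141767 GENCODE M21 transcripts (0.00141%), which were the full-length Malat1 and Neat1 transcripts. The letters are those of these 2 elements, so finding both was fixed in advance. Exact letters miss elements spelled otherwise, so the share does not measure how rare such elements are. The element of Malat1 (chr19:5795921-5796070) and that of Neat1 (chr19:5824708-5824802) are shown to compare them, with the U-rich and A-rich tracts in capitals, as DNA letters of the RNA strand.
Malat1: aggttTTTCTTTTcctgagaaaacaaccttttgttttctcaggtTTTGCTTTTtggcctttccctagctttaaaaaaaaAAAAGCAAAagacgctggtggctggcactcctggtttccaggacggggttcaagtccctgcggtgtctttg
Neat1: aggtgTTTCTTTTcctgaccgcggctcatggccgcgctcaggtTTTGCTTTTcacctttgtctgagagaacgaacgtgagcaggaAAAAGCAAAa
The letters after the A-rich tract of Malat1 begin mascRNA, the tRNA-like small RNA that is cut from the primary transcript.

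Miat lies at chr5:112213228-112229395 on the minus strand and carries repeats of TACTAAC, the branch point consensus that the splicing factor SF1 binds. At least 6 copies occurred in 2 of 6894 transcripts of 5 to 15 kb (0.0290%), both of them Miat transcripts. The threshold equals the 6 copies of the Miat transcript itself, so Miat was bound to pass. What remains is that no other gene had a transcript of this length with as many. At least 1 copy occurred in 15.3%. The repeats fall into groups at chr5:112217309-112217460 and chr5:112216752-112216812, shown with each copy in capitals.
Miat, upstream group: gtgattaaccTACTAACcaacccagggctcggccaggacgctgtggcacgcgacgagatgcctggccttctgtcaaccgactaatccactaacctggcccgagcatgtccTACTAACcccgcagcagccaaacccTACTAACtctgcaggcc
Miat, downstream group: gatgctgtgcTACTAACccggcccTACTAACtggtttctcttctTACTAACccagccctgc

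**Figure D1:**
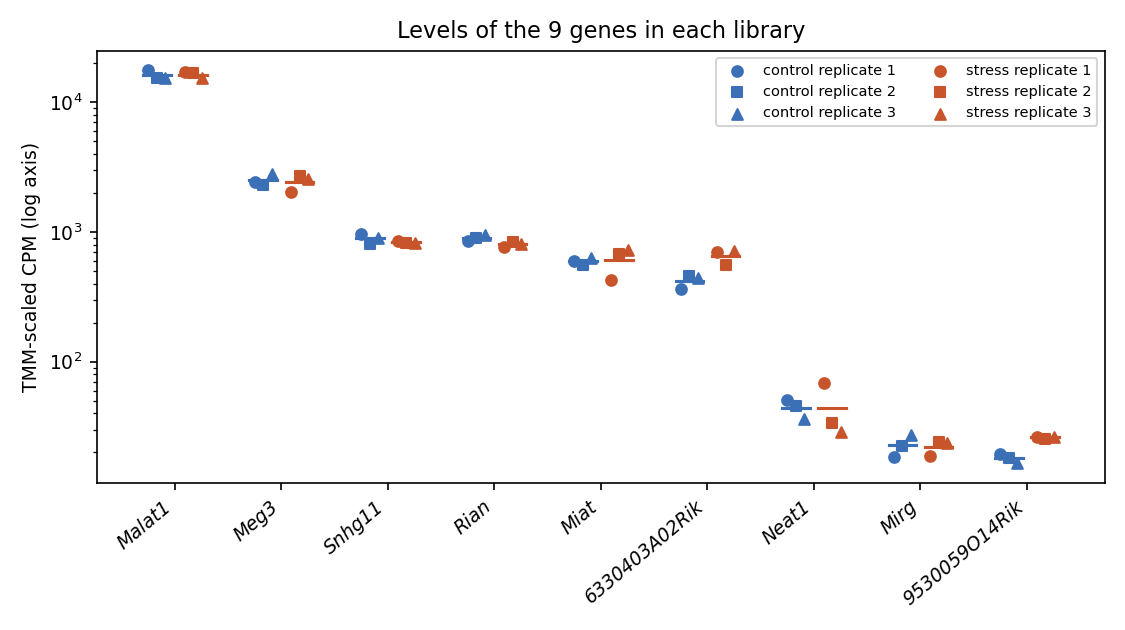
TMM-scaled CPM on a log axis for the 9 genes in each control (blue) and stress (orange) library, with bars at the group means. Malat1 lies between 15337 and 17633 CPM, while Neat1, Mirg and 9530059O14Rik lie under 70 CPM in every library.

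Malat1 was the most counted of all symbols and took 1.54% to 1.76% of the gene counts of a library. The 9 genes together took 2.07% to 2.28%. Meg3 ranked 7 by mean CPM, Snhg11 91, Rian 93, Miat 176 and 6330403A02Rik 208. Neat1 ranked 5286, Mirg 7724 and 9530059O14Rik 7776, so these 3 were not among the abundant RNAs of this tissue.

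Levels between genes were compared per kilobase of merged exons. Malat1 stood at 2326 CPM per kb and Meg3 at 136 CPM per kb. They were followed by Snhg11 (101 CPM per kb), 6330403A02Rik (73.1 CPM per kb), Miat (64.9 CPM per kb) and Rian (46.7 CPM per kb). The lowest 3 were 9530059O14Rik (3.33 CPM per kb), Mirg (3.07 CPM per kb) and Neat1 (2.11 CPM per kb). From Meg3 down to Rian each gene's range over the 6 libraries overlapped that of the next, as did the ranges of the lowest 3. Within every single library, though, Meg3 lay above Snhg11 and Miat above Rian on this scale. Between neighbours in this order, the ranges were separate from Malat1 to Meg3 and from Rian to the lowest 3. The order depends on which exons are counted: per kilobase of the longest transcript, Rian stood at 105 CPM per kb, above 6330403A02Rik (82.9) and Miat (65.8). Neat1 has a short form, and dividing by its 3.004 kb gives 14.6 CPM per kb.

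In the stress comparison, 0 of the 9 genes passed the adjusted threshold, where 0.0285% of all tested genes did. Stress and control libraries did not overlap for 2 genes that were higher in stress and 1 that was lower. Over all tested genes these shares were 6.74% higher and 7.87% lower. The 2 higher genes are those selected on this contrast. The median log2 fold change of the 9 genes was -0.01, beside 0.00 for all tested genes. Adjusted p-values below come from edgeR's quasi-likelihood test over all 14058 genes, and standard errors and 95% intervals from limma-voom.

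Malat1 measured 17633, 15337 and 15370 CPM in control replicates 1, 2 and 3, and 16988, 16690 and 15429 CPM in stress replicates 1, 2 and 3. The groups overlapped, with control replicate 1 the highest library. Stress differed from control by a log2 fold change of 0.02 (SE 0.08, edgeR adjusted p = 0.958). Its interval, -0.15 to 0.20, bounds the difference more narrowly than that of Meg3, Miat, Neat1 or Mirg. The SD of log2 CPM over all 6 libraries was 0.088 for Malat1, the smallest of the 9 genes, and 0.45 for Neat1, the largest.

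Neat1, the paraspeckle scaffold, measured 50.5, 45.4 and 36.5 CPM in the controls and 68.4, 33.7 and 28.8 CPM in stress. Stress replicate 1 was the highest of the 6 libraries and the other 2 stress libraries were the lowest. With all 6 libraries the log2 fold change was -0.01 (SE 0.29, edgeR adjusted p = 0.993). Dropping stress replicate 1 gave a value of -0.50 (edgeR adjusted p = 0.153), and dropping stress replicate 3 instead gave 0.22. The first of these fits leaves out the library that was highest for Neat1. The stress libraries it keeps lay below the controls, but no share of all genes is given for that subset. Their separation therefore cannot be read as a fall in stress. Set against its neighbour, Neat1 reached 0.287, 0.296 and 0.237 counts per 100 Malat1 counts in the controls, and 0.403, 0.202 and 0.187 in stress. The part of the choroid plexus, ependymal, striatal and oligodendrocyte markers of stress replicate 1 in these values was not tested. The neighbouring protein gene Frmd8 had a log2 fold change of 0.31 (SE 0.21, edgeR adjusted p = 0.741) with overlapping groups.

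Miat, the neuronal nuclear-body RNA, stood at the opposite end from Neat1 in that library. Controls measured 599, 556 and 628 CPM and stress libraries 428, 676 and 732 CPM. Stress replicate 1 was the lowest of the 6 libraries, and stress replicates 2 and 3 were the highest. Over all libraries the log2 fold change was 0.04 (SE 0.18, edgeR adjusted p = 0.969), and 0.24 without stress replicate 1 (edgeR adjusted p = 0.200). The spread within stress, as a range of log2 CPM, was 0.77 with stress replicate 1 and 0.11 without it. For Neat1 the same range was 1.23 with it and 0.22 without it.

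**Figure D2:**
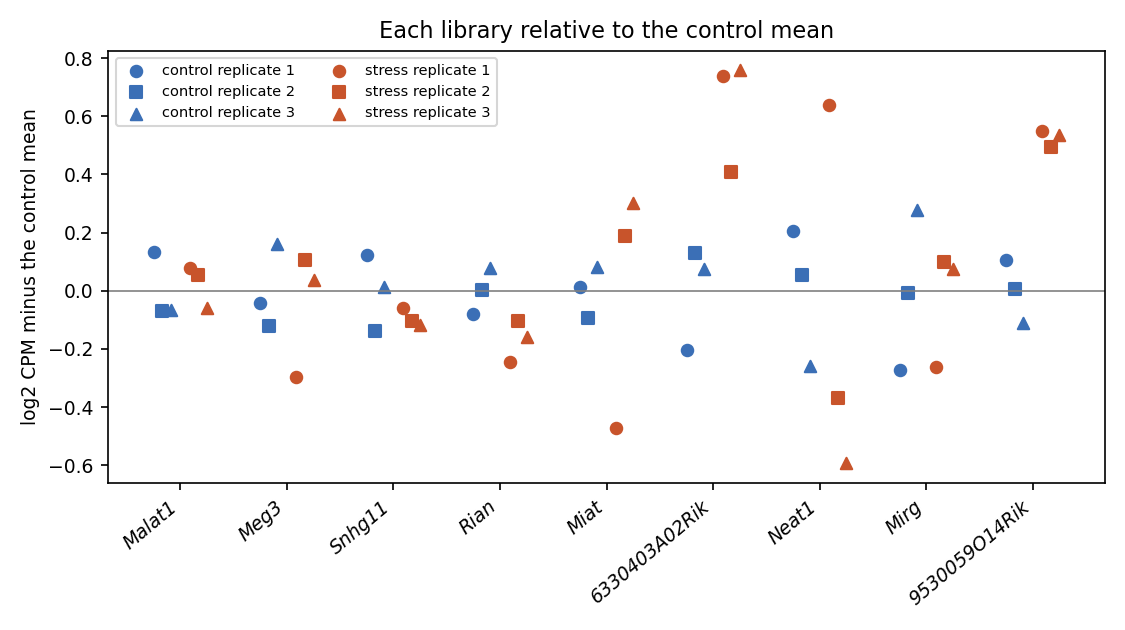
log2 CPM of each library minus the mean of the controls, for the 9 genes (controls blue, stress orange). Stress replicate 1 (orange circle) is the lowest point for Meg3, Rian and Miat and the highest for Neat1, and the 3 stress points of 9530059O14Rik and 6330403A02Rik lie above all of their control points.

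The proteins of these nuclear bodies were listed beside their RNAs. None of the 18 tested paraspeckle protein genes passed the adjusted threshold, with 1 higher and 3 lower in stress without overlap and a median log2 fold change of -0.03. The higher gene was Smarca4 (0.07) and the lower genes were Zc3h6 (-0.29), Tardbp (-0.12) and Hnrnpa1 (-0.37). Of 22 genes for nuclear speckle and Malat1-binding proteins, 0 were higher and 1 lower without overlap, with a median of 0.01. Of 5 genes for splicing factors that bind Miat, 0 were higher and 1 lower, with a median of -0.02. The lower gene of both lists was Srsf1 (-0.05), a splicing factor that the lists share. Every gene of these lists had an edgeR adjusted p above the threshold. Over all tested genes, 6.74% were higher and 7.87% lower without overlap, and no list was tested as a set.

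Meg3, Rian and Mirg lie in this order on the plus strand of chromosome 12, at chr12:109541001-109571726, chr12:109603940-109661716 and chr12:109729764-109749460. They span 208 kb, with gaps of 32.2 kb and 68.0 kb. Meg3, the first of them, whose promoter carries a parent-specific DNA methylation mark, measured 2428, 2300 and 2797 CPM in the controls and 2034, 2687 and 2567 CPM in stress. The groups overlapped, stress replicate 1 was the lowest library, and its log2 fold change was -0.05 (SE 0.12, edgeR adjusted p = 0.946). Without stress replicate 1 it was 0.07.

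Rian, the host of the C/D box small nucleolar RNAs of the domain, was the 1 member whose stress values all lay below the controls. Controls measured 851, 902 and 952 CPM, and stress libraries 760, 838 and 808 CPM. The highest stress library and the lowest control were 838 and 851 CPM. Rian had a log2 fold change of -0.17 (SE 0.07, 95% interval -0.33 to -0.01) that did not pass edgeR's quasi-likelihood test (adjusted p = 0.573). It was -0.13 without stress replicate 1. Per 100 Meg3 counts, Rian measured 35.1, 39.2 and 34.0 in the controls and 37.4, 31.2 and 31.5 in stress. On that scale the groups overlapped, with stress replicate 1 inside the control range.

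Mirg, the miRNA host at the end of the domain, measured 18.5, 22.3 and 27.3 CPM in the controls and 18.6, 24.1 and 23.7 CPM in stress. Control replicate 1 and stress replicate 1 were the lowest pair, and the groups overlapped. Mirg had a log2 fold change of -0.04 (SE 0.16, 95% interval -0.40 to 0.33, edgeR adjusted p = 0.967). Without stress replicate 1 it was 0.07.

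**Figure D3:**
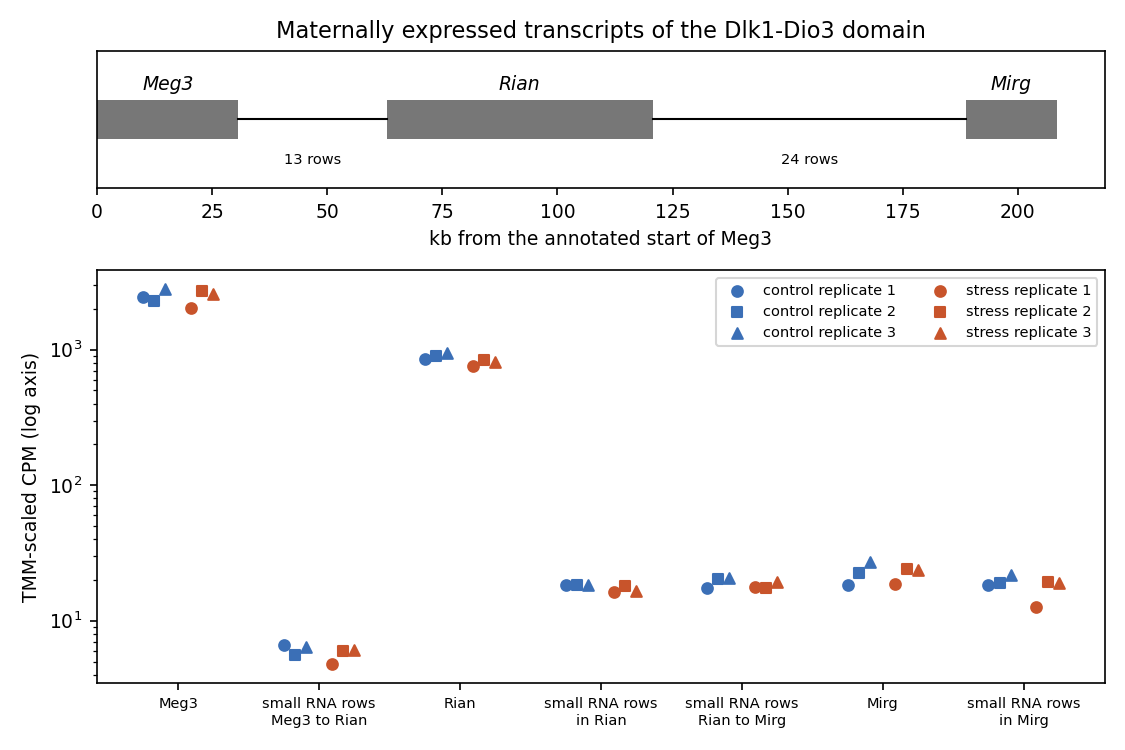
Top, GENCODE spans of Meg3, Rian and Mirg to scale in kb from the start of Meg3, with the number of small RNA entries between them. Bottom, TMM-scaled CPM on a log axis for each transcript and for the summed small RNA entries of each interval, by library: the small RNA sums inside Mirg (12.5 to 21.6 CPM) are near the level of Mirg itself, and those inside Rian are far below Rian.

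The count files list hairpins and small nucleolar RNAs of the domain separately, which gave a further readout of the same transcripts that the choice of genes had not used. From Meg3 to Mirg there were 59 such entries, 55 of them miRNA hairpins. Summed, they measured 60.6, 63.2 and 67.0 CPM in the controls and 51.2, 60.8 and 60.7 CPM in stress. Stress replicates 1, 2 and 3 were all lower than control replicates 2 and 3, and control replicate 1 lay just below stress replicates 2 and 3. Inside Rian, 7 entries summed to 18.3, 18.2 and 18.5 CPM in the controls and 16.2, 18.1 and 16.5 CPM in stress. All 3 stress sums inside Rian were below the controls, but stress replicate 2 and control replicate 2 were 18.14 and 18.21 CPM. Over all tested genes, 7.87% were lower without overlap. Of the entries inside Rian that could be tested, Mir341 was lower without overlap. Mir1188, AF357425, DQ267100 and DQ267102 overlapped. Inside Mirg, 13 entries summed to 18.3, 18.997 and 21.6 CPM in the controls and 12.5, 19.4 and 18.9 CPM in stress, with overlapping groups. The 2 hairpins inside Meg3 had no counts in any library. Being inside a host refers here to the GENCODE spans. Mirg spans 19.7 kb in GENCODE and 14.5 kb in RefSeq, so the set of entries inside it depends on the annotation. Reads that the authors' counting gave to a hairpin may have come from its host: of the sum of Mirg and its 13 entries, Mirg itself held 50.3% to 59.8%. These sums were not tested.

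Among the hairpins inside the hosts, the most counted were Mir1188 (215 counts over all 6 libraries) and Mir341 (147) in Rian, and Mir382 (175) and Mir134 (142) in Mirg. Mir382 and Mir134 lie inside Mirg by its GENCODE span only, because both come before its RefSeq promoter window. Libraries of this kind keep RNAs as short as mature miRNAs poorly, so these counts are not levels of the mature forms. The mature 5p forms are printed from RefSeq (GRCm38.p6) with the seed (bases 2 to 8) in capitals.
miR-1188-5p, in Rian at chr12:109611841-109611861: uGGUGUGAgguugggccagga
miR-341-5p, in Rian at chr12:109611521-109611541: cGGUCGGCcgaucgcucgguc
miR-382-5p, in Mirg at chr12:109733781-109733802: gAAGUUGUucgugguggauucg
miR-134-5p, in Mirg at chr12:109734145-109734166: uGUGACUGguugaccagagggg
For the 18 hairpins inside Meg3, Rian and Mirg, all matched in RefSeq, there were 33 mature sequences with 33 different seeds. Different seeds can still be close: miR-341-5p in Rian has GGUCGGC and miR-412-5p in Mirg has GGUCGAC. The hairpins between the hosts were not compared.

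Of 12 other genes listed for the domain and its surroundings, mostly protein genes with Mir1188 the only hairpin tested, 7 could be tested. Of these 0 passed the adjusted threshold, 2 were higher in stress without overlap, 0 were lower, and the median log2 fold change was 0.14. The list leaves out most small RNA genes, more of which had negative than positive values. Of all 27 tested genes within 500 kb of Meg3, 10 had a positive log2 fold change and the median was -0.17. Without overlap 1 of the 27 was higher (Dlk1) and 4 were lower (Rian, Mir341 -0.31, Mir382 -0.44 and Mir541 -0.59). Most of the 27 are small RNA entries of the stretch from Meg3 to Mirg. Mir341 lies inside Rian, and Mir382 and Mir541 inside the GENCODE span of Mirg, so these are not separate observations. Dlk1, a Notch-related membrane protein expressed from the paternal chromosome, measured 1.21, 1.18 and 1.59 CPM in the controls and 2.29, 1.63 and 5.19 CPM in stress. Its values rest on 10 to 50 counts, and the log2 fold change of 1.20 (SE 0.46) had an edgeR adjusted p of 0.532. Every stress library lay above the controls, and stress replicate 3 was the highest. Slc25a29, a mitochondrial carrier gene, had a log2 fold change of 0.41 (SE 0.13, edgeR adjusted p = 0.447). Rtl1 and Dio3 were too low to test. Among 21 tested imprinted genes of other domains, 1 was higher and 4 were lower in stress without overlap, and the median was -0.01. The higher gene was Snrpn (0.998, SE 0.40) and the lower genes were Peg13 (-0.26, SE 0.08), Nap1l5 (-0.45, SE 0.15), Peg3 (-0.13) and Usp29 (-0.16). Their edgeR adjusted p-values were all above the threshold. Peg13 is itself a noncoding imprinted RNA expressed in brain. The polycomb repressive complex 2, which Meg3 is known to bind, had 10 tested genes, of which 0 were higher and 3 lower without overlap (Mtf2 -0.14, Eed -0.17 and Ezh2). Ezh2, its catalytic subunit, had a log2 fold change of -0.30 (SE 0.14, edgeR adjusted p = 0.611). Beside all these counts without overlap stand the shares over all tested genes, 6.74% higher and 7.87% lower. Neither the complex nor the other lists were tested as a set.

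Snhg11, a neuron-enriched small nucleolar RNA host gene, measured 970, 808 and 899 CPM in the controls and 854, 828 and 820 CPM in stress. All 3 stress libraries lay inside the control range, which was the wider of the 2 groups. Snhg11 had a log2 fold change of -0.10 (SE 0.08, 95% interval -0.27 to 0.08, edgeR adjusted p = 0.810). Its neighbour Lbp, which encodes a lipopolysaccharide-binding protein, stood at 25.6 CPM in stress replicate 1 and at 0.52 to 1.45 CPM in the other 5 libraries, while Snhg11 in stress replicate 1 lay between the controls.

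**Figure D4:**
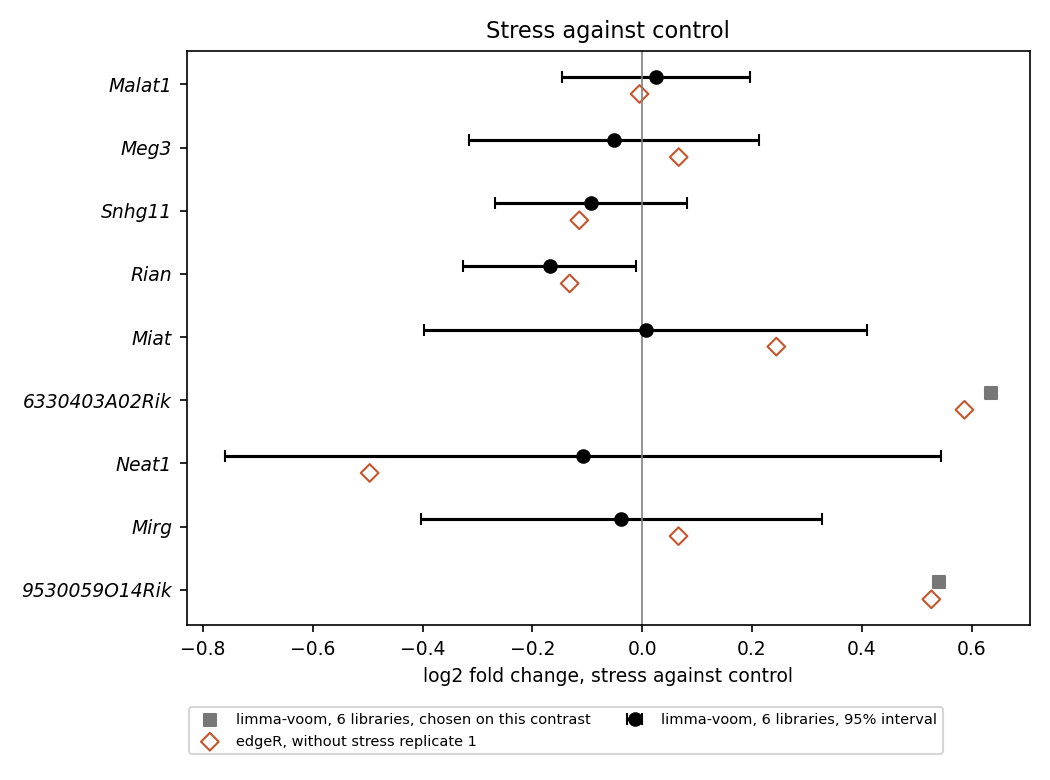
log2 fold change of stress against control for the 9 genes. Black points are limma-voom estimates with 95% intervals, grey squares are the 2 genes selected on this contrast, without intervals, and open diamonds are edgeR estimates without stress replicate 1. Leaving that library out moves Neat1 from -0.01 to -0.50 and Miat from 0.04 to 0.24 by edgeR, and moves 9530059O14Rik from 0.54 to 0.53.

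9530059O14Rik, a long noncoding RNA at chr9:122572499-122679596 on the plus strand, is given as a description. That is its GENCODE span, 107 kb, while RefSeq gives it 8.15 kb, and which span the counts used is not known. Controls measured 19.3, 18.0 and 16.6 CPM (156 to 184 counts) and stress libraries 26.5, 25.5 and 26.3 CPM (219 to 253 counts). The 3 stress libraries lay close together, above every control. Stress was higher by a log2 fold change of 0.54 (SE 0.10), and by 0.53 without stress replicate 1.

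6330403A02Rik, the Stum gene, whose protein is related to a Drosophila protein of mechanosensory neurons, measured 364, 459 and 442 CPM in the controls and 701, 558 and 710 CPM in stress. All 3 stress libraries lay above every control, with stress replicate 2 the lowest of them. Stress was higher by a log2 fold change of 0.64 (SE 0.12), and by 0.59 without stress replicate 1. Both genes were picked from a list of the genes ranked by p in this contrast, with no threshold of their own.

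The promoters of these 2 genes are shown because they are the members selected on this contrast: 250 bases before and 50 bases after the RefSeq start, on GRCm38.p6. GC boxes (GGGCGG, both strands) and the E-box (CACGTG) are in capitals.
9530059O14Rik, chr9:122572251-122572550, plus strand: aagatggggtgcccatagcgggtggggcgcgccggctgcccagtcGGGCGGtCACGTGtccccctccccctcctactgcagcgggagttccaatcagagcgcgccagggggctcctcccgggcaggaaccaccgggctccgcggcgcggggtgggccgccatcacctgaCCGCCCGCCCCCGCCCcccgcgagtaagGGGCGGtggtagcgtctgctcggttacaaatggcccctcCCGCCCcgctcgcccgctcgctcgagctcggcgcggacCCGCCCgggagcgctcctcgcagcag
6330403A02Rik, chr1:180483455-180483754, minus strand: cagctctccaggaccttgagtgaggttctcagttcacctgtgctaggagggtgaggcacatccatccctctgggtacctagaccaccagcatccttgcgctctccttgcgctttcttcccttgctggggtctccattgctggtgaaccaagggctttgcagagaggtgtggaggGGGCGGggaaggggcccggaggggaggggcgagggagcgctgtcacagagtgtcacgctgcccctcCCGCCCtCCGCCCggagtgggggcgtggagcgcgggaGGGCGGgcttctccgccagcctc
The first has a GC content of 75.7% and the second of 66.3%, against a median of 52.7% over all promoters of this length. The first holds 7 GC boxes and 1 E-box, and the second 4 GC boxes and no E-box. At least 1 GC box was present in 35.7% of 32851 promoters and the E-box in 7.15%. Among the other members with a promoter, Miat had 64.3% GC and 1 GC box. Snhg11 had 60% GC, the rest had 47% to 53.7%, and none of these held a GC box. Neither holds the cAMP response element TGACGTCA, which was present in 1.79% of all, or AGAACA, a hexamer of glucocorticoid receptor sites. Of the other members, Meg3 has 2 listed promoters, the first with 1 cAMP response element and the second with 0. Rian holds 1 and Mirg 2 copies of AGAACA, which 18.97% of all promoters hold. The Mirg window (chr12:109734731-109735030) follows the RefSeq start. By the GENCODE span it lies within the gene, over the hairpins Mir668 and Mir485. A match describes letters in the window and is not a measured binding site.

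Genes around 6330403A02Rik were compared, of which Parp1 had stood on the ranked list that 6330403A02Rik was picked from. Itpkb, which encodes an inositol trisphosphate kinase and lies 7.59 kb away on the other strand, measured 27.3, 31.4 and 28.7 CPM in the controls and 34.3, 32.8 and 33.0 CPM in stress. Parp1, the poly(ADP-ribose) polymerase gene 85.4 kb away, measured 121, 124 and 115 CPM in the controls and 149, 147 and 154 CPM in stress. For both genes every stress library was above every control. The log2 fold change of Itpkb was 0.19 (SE 0.09, edgeR adjusted p = 0.601). That of Parp1 was 0.32 (SE 0.06), and it is a description too, because Parp1 stood on the same ranked list as 6330403A02Rik. Of the 13 tested genes within 500 kb, these 2 were higher without overlap, 0 were lower, and 7 had a positive log2 fold change. Parp1 came from the ranked list, which leaves Itpkb. Shares without overlap over all tested genes were 6.74% higher and 7.87% lower. Around 9530059O14Rik, 10 genes were tested within 500 kb, of which 0 were higher and 3 lower without overlap (Zfp445 -0.07, Zfp105 -0.16 and 1110059G10Rik -0.31, named after their values were seen). The nearest protein-coding gene before it, Abhd5, had a log2 fold change of -0.13.

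**Figure D5:**
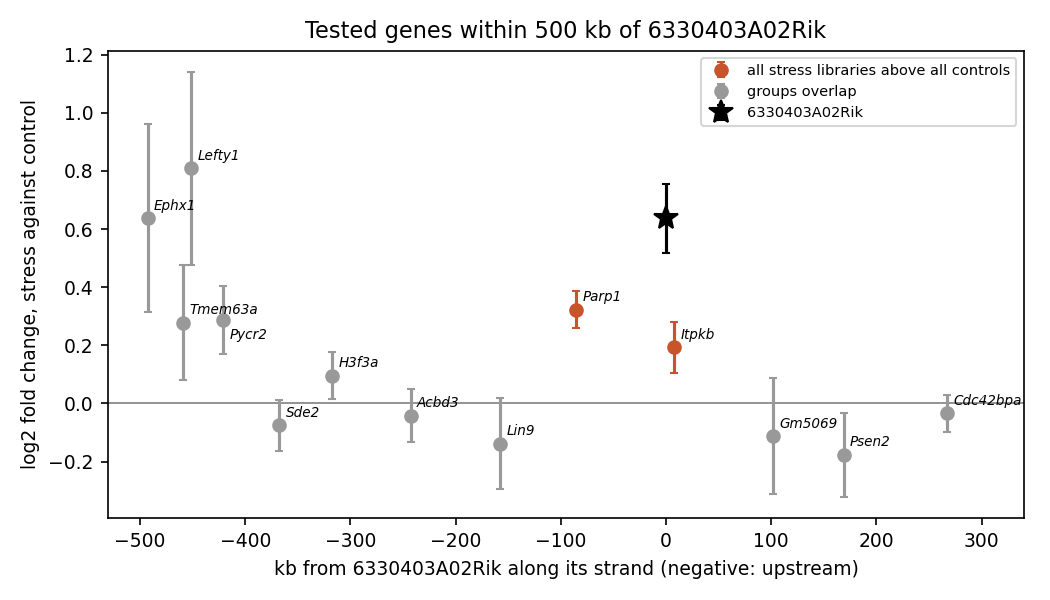
log2 fold change of stress against control (limma-voom standard errors as bars) for the 13 tested genes within 500 kb of 6330403A02Rik, by distance in kb along its strand. Parp1 and Itpkb (orange) are the 2 genes whose stress libraries all lie above the controls. Parp1 stood on the same ranked list as 6330403A02Rik.

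Genes whose log2 CPM ran closest to that of a member over the 6 libraries were ranked by the root mean square difference after centring, among genes with a mean of at least 1 CPM over the 6 libraries. Closest to 9530059O14Rik were Gm15612 (0.052), Spry3 (0.071) and Mdga1 (0.078). Gm15612 is near the limit, at 0.850 to 0.967 CPM in the controls and 1.56 to 1.63 CPM in stress. Closest to 6330403A02Rik were Plxna1 and Sh3rf1 (0.086 each) and Ccdc37 (0.099). Among the closest to Rian were Zfp68 (0.020) and Mtmr7 (0.025), and closest to Meg3 were Rgs12 (0.028), Sh3bgrl2 (0.031) and Acsf3 (0.044). The 6 libraries are shared by all these values, and they describe likeness only. They also depend on how much the member itself varied, so they do not rank one member against another. The SD of log2 CPM was 0.115 for Rian, 0.167 for Meg3, 0.297 for 9530059O14Rik and 0.387 for 6330403A02Rik. For the last 2, selected on this contrast, likeness partly repeats that choice.

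Other long noncoding RNA genes gave the background for the members. Of 71 listed, 49 were in the files and 35 could be tested, 0 passed the adjusted threshold, 1 was higher and 5 were lower without overlap, and the median log2 fold change was -0.02. The higher gene was Dlx6os1 (0.21), and the lower genes were Rmst, 1700020I14Rik, Peg13, Snhg6 (-0.27) and Jpx (-0.21). Among all tested genes, the shares without overlap were 6.74% higher and 7.87% lower. Rmst, a noncoding RNA linked to neuronal differentiation, measured 37.1, 41.5 and 45.1 CPM in the controls and 19.2, 26.5 and 17.7 CPM in stress. All 3 stress libraries were below the controls, with stress replicate 3 the lowest. The difference of -0.97 on the log2 scale (SE 0.15) did not pass the edgeR test (adjusted p = 0.197). In the same libraries 5 markers of thalamus and habenula summed to 245 to 281 CPM in the controls and 134 to 175 CPM in stress, and their part in the Rmst values was not tested. 1700020I14Rik, a clone-named noncoding RNA, had a log2 fold change of -0.35 (SE 0.09, edgeR adjusted p = 0.306).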

How the data were processed

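Counts per gene symbol were deposited by the authors as 1 file per library, with no normalization. Per the submitters' processing notes, TopHat2 2.0.9 and HTSeq 0.6.1 were used with Trimmomatic 0.33, FastQC 0.11.3 and edgeR 3.12.0, on GRCm38 (also named mm10). Which annotation and which counting options applied, strand included, is not given in the sources used, so reads of a member and of an overlapping antisense gene may not be told apart, and small RNAs inside a host can take or lose reads. Entries that name no gene were left out. Reads outside any feature made up 59.5% to 63.1% of all counts of a library and ambiguous reads 0.211% to 0.253%.

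Genes were filtered with filterByExpr, scaled by TMM and tested over the 6 libraries with edgeR 4.0.16 (glmQLFit and glmQLFTest, R 4.3.3), stress against control with no covariates, and adjusted by Benjamini-Hochberg over all 14058 genes. Standard errors and intervals came from limma 3.58.1 (voom). DESeq2 1.42.0 and the edgeR exact test were alternatives, beside other scalings, filters, a replicate block and each library left out. The fits were tested on simulated data. Each pair of libraries differed by more than sampling noise. All 9 members are named with their nearest neighbours, genes of each list past the threshold or else the 3 with the smallest p (given in part), and the 3 most alike genes; a few of these are not reported here. Other genes in counts of 5 or fewer without overlap were named after their values were seen. The members and lists were chosen with earlier results of these data known. Lengths, positions and transcript sequences came from GENCODE M21 (GRCm38), promoters and miRNAs from RefSeq (GRCm38.p6). A promoter was listed for 8 of the 9 members. With 3 libraries against 3, a permutation test of 1 value cannot go below an exact p of 0.1, and none was used.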

Additional observations from a re-analysis of the deposited data

How the results depend on the processing

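Over the 18 alternatives, Snhg11 (-0.16 to -0.03) and Rian (-0.21 to -0.12) kept a negative log2 fold change. 9530059O14Rik ranged from 0.49 to 0.59 and 6330403A02Rik from 0.54 to 0.74, a sign that their selection on this contrast fixes. For the other 5 genes the sign turned only when 1 library was left out, over a range of -0.0051 to 0.093 for Malat1, -0.12 to 0.067 for Meg3, -0.10 to 0.24 for Miat, -0.50 to 0.22 for Neat1 and -0.16 to 0.12 for Mirg. The lowest value of Neat1 and the highest of Miat and Meg3 were without stress replicate 1. The count of genes past the threshold depended on the tool: 38 higher and 68 lower with DESeq2, 44 and 87 with the edgeR exact test, 0 and 1 with limma-voom, and 0 and 0 with the replicate block. Leaving out 1 library gave 0 to 11 higher and 0 to 30 lower. The number of members past it was 1 with DESeq2 (6330403A02Rik) and 2 with the exact test (also 9530059O14Rik), and 0 in every fit that left out a library. Both genes were selected on this contrast, so these counts support nothing about them. The cause was not tested. Same-numbered libraries correlated at 0.139, -0.003 and 0.047 in their deviations from group means. Libraries with different numbers correlated at -0.154 to 0.121. Stress replicate 1 enters every stress mean, so these values cannot decide whether the numbers pair the samples. Mirg rests on 153 to 257 counts a library and Neat1 on 278 to 628.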
